A study of Mus musculus with 6 samples.

Results

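The genes described here crosslink or form the cornified envelope, or are secreted or surface proteins of cornifying keratinocytes, apart from the protease gene Casp14. All lie outside the Sprr and Lce locus. They are Tgm1, Tgm3, Evpl, Ppl, Cnfn, Sbsn, Krtdap, Dmkn, Casp14 and Lypd3, 10 of the 55421 genes in the deposited table, and were taken from it by symbol. Positions below are those of GENCODE M21 on GRCm38, found by gene identifier, since the build of the deposited counts is not known. Their level was compared between 3 KO and 3 WT mice, 1 library of tongue epithelium per mouse. KO mice (K14CreERT2 IRE1 F/F) carried floxed Ire1α alleles and CreERT2, a Cre recombinase switched on by tamoxifen, driven by the promoter of keratin 14, a keratin of the basal layer. WT littermates (IRE1F/F) carried the same floxed alleles, and no Cre is named for them. All mice of both groups received daily tamoxifen and were harvested the day after the last dose. Because Cre was named in KO mice alone, loss of Ire1α and activity of Cre itself cannot be told apart. Age and sex are not given in the labels. The series was made to ask how this lining renews itself and differentiates without Ire1α, a kinase and RNase that responds to misfolded protein in the secretory pathway.

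The cornified envelope is a shell of crosslinked protein that replaces the plasma membrane of a keratinocyte as it dies at the surface of a stratified epithelium. The plakins envoplakin and periplakin are laid down first beneath the membrane, and transglutaminases then join them and later precursors through bonds between glutamine and lysine. The upper side of the mouse tongue bears horny filiform papillae, so cornified cells are a normal part of this tissue.

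Sbsn, Dmkn and Krtdap encode secreted proteins of suprabasal keratinocytes and are neighbours on chromosome 7, within 39.6 kb in GENCODE M21 on GRCm38. All are read from the plus strand. The gap from the end of Sbsn to the start of Dmkn was 7.62 kb and that from the end of Dmkn to the start of Krtdap 6.83 kb. Their start windows are shown because they are the windows of the set in which a match to the AP-1 motif was found. RefSeq (GRCm38.p6) start sites were at hand for 8 of the 10 genes, in 11 windows, and each window is the 250 bases before a start, 5′ to 3′. Capitals mark TGANTCA, the motif of AP-1 (searched on both strands, where it reads the same), and TATAAA, the TATA motif (also searched on both strands).
Sbsn, chr7:30751221-30751470, plus strand: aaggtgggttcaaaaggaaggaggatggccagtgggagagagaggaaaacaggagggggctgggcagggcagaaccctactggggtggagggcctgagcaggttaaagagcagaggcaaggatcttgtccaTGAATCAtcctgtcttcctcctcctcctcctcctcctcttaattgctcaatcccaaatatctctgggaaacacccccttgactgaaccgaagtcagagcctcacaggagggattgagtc
Dmkn, first start, chr7:30763506-30763755, plus strand: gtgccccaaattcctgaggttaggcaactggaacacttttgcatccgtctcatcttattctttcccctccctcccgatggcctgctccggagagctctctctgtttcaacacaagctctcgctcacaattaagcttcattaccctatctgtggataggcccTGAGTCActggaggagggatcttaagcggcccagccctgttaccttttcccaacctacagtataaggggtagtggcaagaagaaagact
Dmkn, internal start, chr7:30776155-30776404, plus strand: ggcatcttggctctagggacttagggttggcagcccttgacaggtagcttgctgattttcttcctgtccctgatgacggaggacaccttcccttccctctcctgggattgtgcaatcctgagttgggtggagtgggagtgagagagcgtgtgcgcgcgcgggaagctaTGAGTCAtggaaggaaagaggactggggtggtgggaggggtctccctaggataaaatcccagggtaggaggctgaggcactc
Krtdap, chr7:30787655-30787904, plus strand: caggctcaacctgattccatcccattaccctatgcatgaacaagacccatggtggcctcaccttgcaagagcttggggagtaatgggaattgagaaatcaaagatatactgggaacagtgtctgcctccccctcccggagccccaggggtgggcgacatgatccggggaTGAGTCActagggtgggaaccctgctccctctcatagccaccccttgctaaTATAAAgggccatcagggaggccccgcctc

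The AP-1 letters stood in 5 of the 11 windows, from these 3 genes, and in 6.75% of the 32851 start windows in the RefSeq table. A pair of Dmkn windows start within a few bases of each other and share 1 match. In Krtdap the match began 81 bases before the start, and in Dmkn 89 bases before the first start and 82 before the internal one. TATAAA stood before Krtdap and Tgm3, and in 12.4% of all windows. The motifs of the unfolded protein response, TGACGTG (UPRE, 1.65% of all windows) and the longer ERSE (0.113% of all windows), both searched on both strands, were not in these 11 windows. AP-1 was put on the list of motifs after its letters had been noticed in these windows, so its share here is a description. A match is a run of letters and not a measured site.

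**Figure D1:**
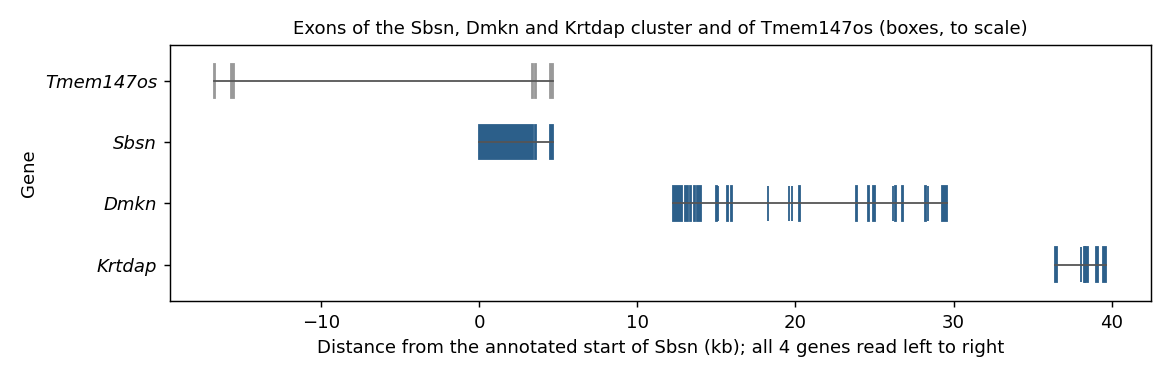
Exon blocks (boxes, to scale) of Sbsn, Dmkn, Krtdap and Tmem147os in GENCODE M21, by distance from the start of Sbsn in kb. The last block of Sbsn overlaps the last block of Tmem147os, while the last blocks of Dmkn and Krtdap overlap no exon of another gene.

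Libraries held 5202101 to 6286153 reads in KO and 4606309 to 5911884 in WT. Values are normalised read counts from a kit that makes a tag near the 3′ end of each mRNA, so they were not divided by length, and transcripts of 1 gene that share a 3′ end were not separated. Keratinocyte markers were abundant in every library, with 12 of 12 tested, of which 0 passed. Their summed level was 820197 to 1124980 in KO and 596347 to 800137 in WT, with no overlap of the groups. Among single tested genes, 19.1% had groups that did not overlap, 9.84% with KO higher. Of 14 skeletal muscle markers 8 were tested and 2 were listed at 0 throughout, and their summed level was 2531 in KO replicate 1, 119 and 517 in KO replicates 2 and 3 and 155 to 356 in WT. Fibroblast markers, with 4 of 10 tested and 1 at 0 throughout, summed to 1172, 253 and 634 in KO and 1768, 1442 and 1972 in WT. One of them passed, Dcn, with 530, 195 and 544 in KO and 1658, 1329 and 1856 in WT (-2.06, limma adjusted p = 0.0152). Dcn made up most of the sum in each library but KO replicate 1. Without Dcn the sums of the groups overlapped. That of KO replicate 1 lay above all WT libraries, and those of KO replicates 2 and 3 lay below them. Of 5 melanocyte markers 1 was tested, Mlana, which reached 10, the level needed for a test, in KO libraries alone. It passed, with 26.0, 15.5 and 18.1 in KO and 0, 0 and 1.31 in WT (limma adjusted p = 0.0135). This call is not given as support. The 5 markers summed to 28.6 to 59.6 in KO and 15.7 to 28.7 in WT, with overlap. Endothelial markers, 1 of 6 tested, summed to 45.7 to 68.3 in KO and 22.2 to 33.9 in WT. Erythrocyte markers, 4 of 5 tested, summed to 1170.1 in KO replicate 1, 44.0 and 73.4 in KO replicates 2 and 3 and 229 to 479 in WT. The part of these cell types in the results below was not tested. Ern1, the targeted gene, had 78.0, 117 and 123 in KO and 102, 105 and 77.1 in WT, and since the labels do not say which exons were removed, a 3′ tag does not check the genotype. The library names hold a number in KO replicate 1 and WT replicates 1 and 2 and a letter in the others. The labels do not say what this stands for.

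None of the 8 genes that could be tested passed in KO against WT (limma on log2(value + 1), Benjamini-Hochberg adjusted p under 0.05), where 1.8% of the 10987 tested genes did, 1.22% higher and 0.583% lower in KO. One of the 8, Casp14, had an unadjusted p under 0.05, where 13.5% of tested genes did. With edgeR the count of the 8 that passed was also 0, as it was with DESeq2, by which 3.35% of tested genes passed. The log2 fold changes lay between -0.30 (Krtdap) and 0.92 (Casp14), with a median of 0.09, and the median over all tested genes was -0.01. Positive values were found for 6 of the 8 and negative ones for Krtdap and Ppl, while 5394 of the 10987 tested genes had positive values. The authors' deposited table of called genes, with 341 rows, lists 0 of the 10 genes. The genes together summed to 114784, 114423 and 119867 in KO and 121412, 103938 and 145269 in WT, with overlap. As a share of the normalised reads in a library, they took 2.04% to 2.11% in KO and 2.16% to 2.41% in WT. Most of this was Krtdap and Dmkn, with 1.30% to 1.45% in KO and 1.47% to 1.80% in WT, and the other genes of the set took 0.647% to 0.736% in KO and 0.612% to 0.713% in WT, with overlap. These are bulk samples, so a change in the cells of a type and a change in RNA per cell cannot be told apart.

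**Figure D2:**
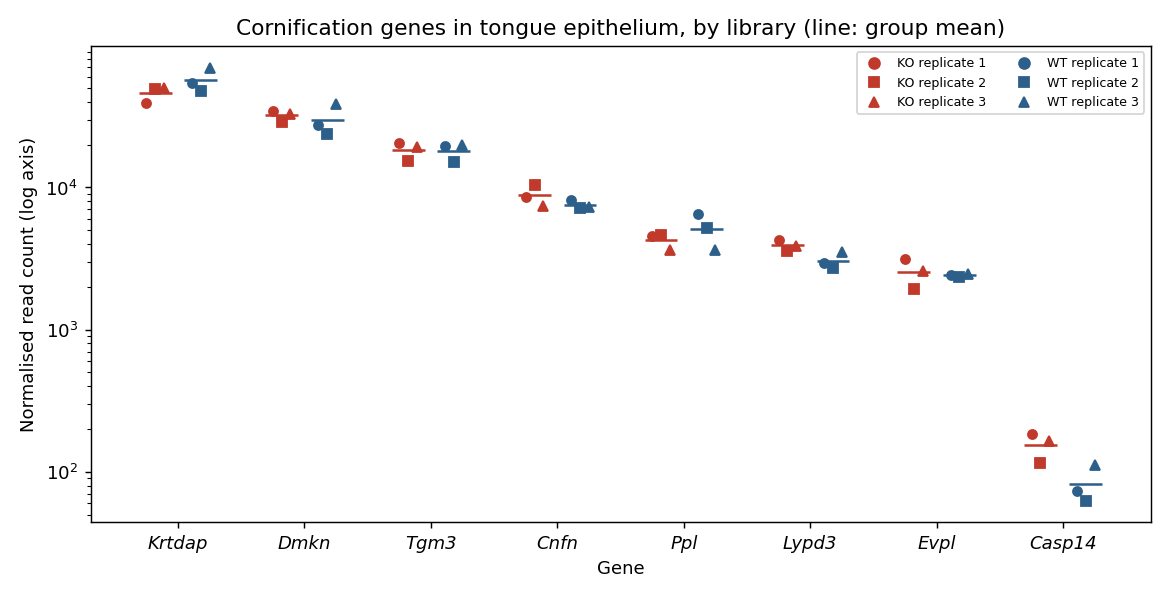
Normalised read count (log axis) of the 8 tested genes in each library, with KO libraries left of WT libraries, a symbol per replicate and a line at the group mean. The groups separate for Casp14 and Lypd3, and overlap for the other genes.

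Tgm3 (ENSMUSG00000027401, chr2:130012349-130050399, plus strand), the epidermal transglutaminase, which needs cleavage by a protease to become active, had 20662, 15337 and 19189 in KO replicates 1 to 3 and 19663, 15017 and 19849.7 in WT replicates 1 to 3. Each group held 1 low library, replicate 2, and a higher pair, so they overlapped almost fully. The means were 18396 ± 2749.8 in KO and 18177 ± 2738 in WT (SD, n = 3 each). That is a log2 fold change of 0.02 ± 0.24 (SE), whose 95% interval ran from 0.70-fold to 1.47-fold (limma adjusted p = 0.986). Its log2 fold change was the smallest of the 8 genes in absolute size, and it ranked 40 of 10987 genes by mean level.

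Tgm1 (ENSMUSG00000022218, chr14:55700009-55713926, minus strand), the membrane-bound keratinocyte transglutaminase that also attaches lipids to the envelope, was listed at 1.72 in KO replicate 2, which is 2 reads, and at 0 in the other 5 libraries. It was not tested. In GENCODE M21 the last exon block of Tgm1, of 420 bases, carries no exon of another gene. B2m, the light chain of MHC class I, which nearly every cell uses, was also listed at 0 in all 6 libraries, so a 0 here is not taken as a measure of absent mRNA. Of 4 other widely used genes, Actb, Hprt, Gapdh and Pgk1, none was at 0 in any library, but their levels differed widely. Actb had 15878 to 27021 and Hprt 635 to 1077, while Gapdh had 19.6 to 58.6 and Pgk1 4.76 to 18.8. A low value here is likewise not taken as a measure of scarce mRNA. These genes were looked up after the value of Tgm1 was seen.

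Of the 6 other transglutaminase genes looked at, 2 could be tested and 0 passed. Tgm5, another enzyme of the epidermis, had 191, 265 and 161 in KO and 348, 204 and 210 in WT (log2 fold change -0.29 ± 0.26 (SE), limma adjusted p = 0.689). Tgm6 had 55.3, 115 and 81.0 in KO and 80.1, 56.7 and 35.3 in WT (0.55 ± 0.34 (SE), limma adjusted p = 0.544). The groups overlapped for both. Tgm2, the tissue transglutaminase, was listed at 0 in each library but WT replicate 2, where it had 0.873.

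Evpl (ENSMUSG00000034282, chr11:116220559-116238077, minus strand) encodes envoplakin, which pairs with periplakin to form the scaffold under the membrane. It had 3116, 1934 and 2597 in KO and 2408, 2335 and 2480.1 in WT. The 3 WT libraries lay close together, with a coefficient of variation of 3.01%, and the KO libraries on both sides of them, with 23.2%. KO over WT gave a log2 fold change of 0.06 ± 0.20 (SE), with a 95% interval of 0.76-fold to 1.42-fold (limma adjusted p = 0.941).

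Ppl (ENSMUSG00000039457, chr16:5086291-5132421, minus strand) encodes periplakin, which also binds keratin filaments, and had 4594, 4641 and 3631 in KO and 6493, 5151 and 3614 in WT. Here the WT libraries were the more spread, and WT replicate 3 was the lowest of the 6. Means were 4288 ± 570.0 in KO and 5086 ± 1441 in WT (SD, n = 3 each). The log2 fold change was -0.21 ± 0.24 (SE), with an interval of 0.60-fold to 1.24-fold (limma adjusted p = 0.773). It was -0.33 between the libraries named by number and 0.18 between those named by letter, so the sign differed between them.

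The proportion of the plakin partners differed among libraries of the same group. Evpl over Ppl was 0.678, 0.417 and 0.715 in KO and 0.371, 0.453 and 0.686 in WT. Among the 28 pairs of the 8 genes, ordered by the root mean square difference of their centred log2 values over the 6 libraries, Evpl and Ppl were number 19 (0.38 log2 units), while Evpl and Tgm3 were number 1 (0.13). All 4 other plakins in the table that were looked at could be tested and none passed, with log2 fold changes of 0.14 to 0.51. The highest was that of Dst, dystonin, whose epithelial form anchors keratin at the hemidesmosome, with 2075, 870 and 1214 in KO and 874, 1010 and 855 in WT (0.51 ± 0.27 (SE), limma adjusted p = 0.465). Plec, plectin, another keratin linker, had 1478, 770 and 1088 in KO and 663, 876 and 742 in WT (0.51 ± 0.24 (SE), limma adjusted p = 0.386). For both, KO replicate 1, the library with the high muscle and erythrocyte markers, was the highest, and KO replicate 2 lay within the WT range.

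Cnfn (ENSMUSG00000063651, chr7:25367620-25369724, minus strand) encodes cornifelin, a small protein of the cornified envelope. It had 8628, 10447 and 7458 in KO and 8129.5, 7189 and 7246 in WT. KO replicate 2 was the highest library, and KO replicate 3 lay inside the WT range. The means were 8844 ± 1506 in KO and 7521 ± 528 in WT (SD, n = 3 each), a log2 fold change of 0.22 ± 0.21 (SE) with an interval of 0.85-fold to 1.60-fold (limma adjusted p = 0.714).

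Krtdap (ENSMUSG00000074199, chr7:30787896-30791097, plus strand), a secreted peptide of suprabasal keratinocytes, had the highest level of the set, at rank 14 of all tested genes. It had 39032, 49362 and 49957 in KO and 54243, 47708 and 69670.5 in WT. WT replicate 3 was the highest library and KO replicate 1 the lowest, and WT replicate 2 lay below a pair of KO libraries. Means were 46117 ± 6143 in KO and 57207 ± 11277 in WT (SD, n = 3 each), and KO over WT gave a log2 fold change of -0.30 ± 0.29 (SE), with a 95% interval of 0.52-fold to 1.27-fold (limma adjusted p = 0.726). It was -0.38 between the libraries named by number and -0.49 between those named by letter.

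Dmkn (ENSMUSG00000060962, chr7:30763756-30781063, plus strand), dermokine, a secreted glycoprotein of the same cell layers, had 34273, 28990.4 and 33019.6 in KO and 27460, 23739 and 38788 in WT. The KO libraries lay between the lowest and the highest WT libraries. KO differed from WT by a log2 fold change of 0.13 ± 0.27 (SE), with an interval of 0.72-fold to 1.66-fold (limma adjusted p = 0.897). Between the libraries named by number it was 0.42 and between those named by letter -0.33.

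Sbsn (ENSMUSG00000046056, chr7:30751471-30756134, plus strand), suprabasin, the neighbour upstream of Dmkn, was listed at 0 in all 6 libraries. Its last exon block, of 170 bases, was covered for 95.3% of its length by exons of Tmem147os on the same strand in GENCODE M21. Tmem147os, a processed transcript, had 3.25, 0.862 and 6.67 in KO and 12.3, 17.5 and 18.3 in WT. All KO libraries lay below all WT libraries, where 19.1% of all tested genes had groups that did not overlap. These values are low, and only the WT libraries reached the level needed for a test. Tmem147os was picked after its values were seen, so the separation is not given as support. A tag in the stretch shared with Sbsn lies in both genes. This overlap was looked up after the value of Sbsn was seen. Of 413 protein-coding genes whose last exon block was covered for at least 90% by exons on the same strand, 66.6% were listed at 0 in every library, against 25.9% of 18713 whose last block carried no exon of another gene. The share was 24.6% of 386 genes covered as far on the opposite strand alone. The part of the overlap in the 0 of Sbsn was not tested. The 0 of Sbsn is given as listed and not as a level of suprabasin mRNA.

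Within each library Krtdap stood in a lower proportion to its neighbour Dmkn in KO than in WT. Krtdap over Dmkn was 1.14, 1.70 and 1.51 in KO and 1.98, 2.01 and 1.80 in WT, and the groups did not overlap. A ratio within a library does not depend on the scaling between libraries. The ratio in KO was 0.744 times that in WT as a geometric mean. It was 0.572 times between the libraries named by number and 0.895 times between those named by letter. A two-sided exact permutation test over the 6 libraries gave p = 0.1, the smallest that 3 against 3 allow. The pair was chosen after its values were seen, as was Evpl over Ppl, so neither this p nor the lack of overlap is given as support. The groups did not overlap for 9 of the 28 ratios among the 8 genes. All of these but Krtdap over Dmkn hold Casp14 or Lypd3, whose own groups did not overlap. The share over all pairs of tested genes was not counted. With Krtdap the groups did not overlap for 3 of the 7 ratios, and 21.7% of all tested genes had ratios to Krtdap that did not overlap.

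**Figure D3:**
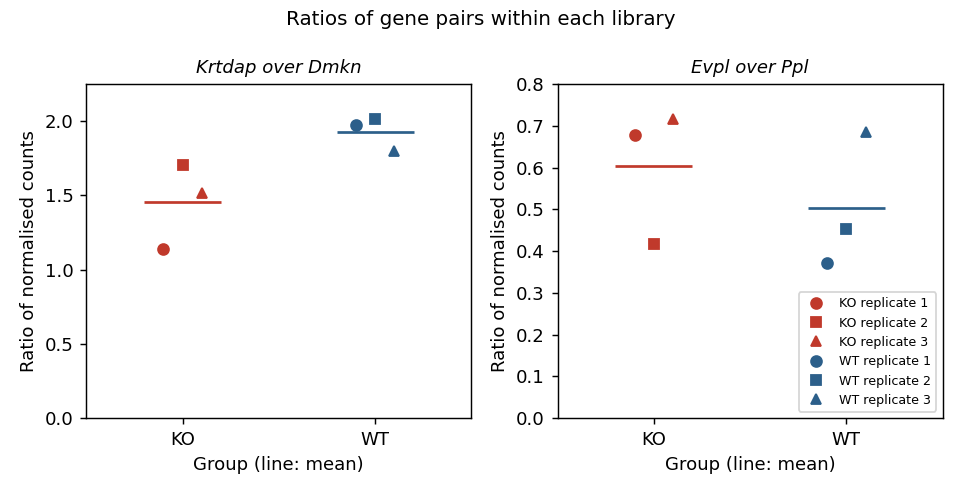
Ratio of normalised counts within each library for Krtdap over Dmkn, neighbours on chromosome 7, and for Evpl over Ppl, partners in the envelope scaffold, with KO left of WT and a line at each mean. The first ratio is 1.14 to 1.70 in KO and 1.80 to 2.01 in WT, and the second overlaps between groups.

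Casp14 (ENSMUSG00000005355, chr10:78711991-78718294, minus strand) encodes caspase-14, a protease of cornifying cells known for its part in the breakdown of filaggrin in the skin. It had 184, 115 and 166 in KO and 73.5, 62.8 and 111 in WT, or 134 to 174 reads in KO and 72 to 85 reads in WT before scaling. All KO libraries lay above all WT libraries, and KO replicate 2 was only just above WT replicate 3. The means were 155 ± 35.6 in KO and 82.4 ± 25.3 in WT (SD, n = 3 each). The log2 fold change was 0.92 ± 0.26 (SE), that is 1.89-fold with a 95% interval of 1.26-fold to 2.83-fold, and did not pass over all genes (unadjusted p = 0.00530, limma adjusted p = 0.127). It ranked 457 of 10987 genes by p. The log2 difference was 1.43 between the libraries named by number and 0.32 between those named by letter. DESeq2 gave an adjusted p = 0.0602. With a weight per library, which called 590 genes or 5.37% of those tested, limma gave an adjusted p = 0.0122. That fit gave KO replicate 3 the largest weight, 3.03, against 0.600 for KO replicate 2 and 0.498 for WT replicate 3. With the name style as a covariate the log2 fold change was 0.87 (limma adjusted p = 0.240).

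Lypd3 (ENSMUSG00000057454, chr7:24636550-24641118, plus strand) encodes C4.4A, a surface protein of the Ly6 and uPAR family on suprabasal keratinocytes. It had 4295, 3595 and 3850.0 in KO and 2941, 2736 and 3510.5 in WT. All KO libraries were above all WT libraries, again with KO replicate 2 just above WT replicate 3. The means were 3913 ± 354 in KO and 3063 ± 401 in WT (SD, n = 3 each). The log2 fold change was 0.36 ± 0.18 (SE), with a 95% interval of 0.97-fold to 1.70-fold (limma adjusted p = 0.443). It was 0.60 between the libraries named by number and 0.08 between those named by letter. Lypd3 and Casp14 were the 2 of the 8 genes whose groups did not overlap, a share of 25%, where 19.1% of all tested genes had groups that did not overlap, 9.84% with KO higher.

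**Figure D4:**
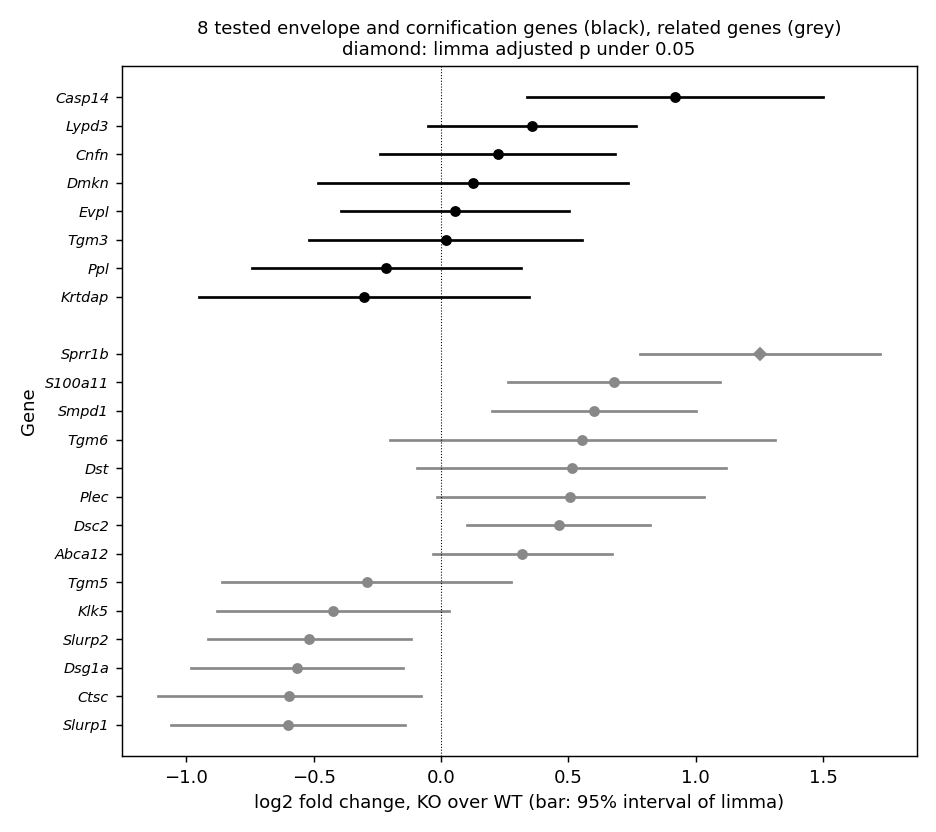
Log2 fold change of KO over WT with its 95% interval from limma for the 8 tested genes (black) and for the 2 genes of smallest p in each list of related genes (grey). Casp14 is the one black interval that excludes 0, and Sprr1b, the diamond, is the one gene with an adjusted p under 0.05.

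Libraries differed from one another in both groups. Relative to the WT mean, the median of the 8 genes was 0.21, -0.05 and 0.10 log2 units in KO replicates 1 to 3 and -0.02, -0.20 and 0.17 in WT replicates 1 to 3. WT replicate 2 was the lowest of the 6 libraries for Tgm3, Cnfn, Dmkn, Casp14 and Lypd3. KO replicate 1 was the highest for Tgm3, Evpl, Casp14 and Lypd3 and the lowest for Krtdap, and it was also the library with the high muscle and erythrocyte markers, whose part in these values was not tested. The pooled SD within groups ran from 0.16 log2 units for Lypd3 to 0.39 for Casp14, and its median over all tested genes was 0.31.

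**Figure D5:**
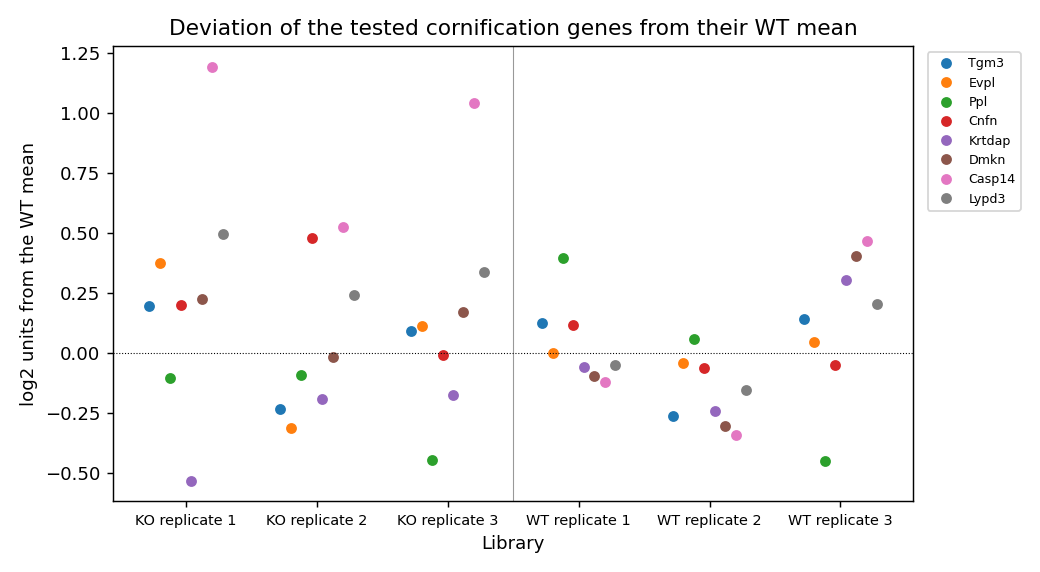
Deviation of each tested gene from its own WT mean, in log2 units, in each library, with KO libraries left of WT libraries. Casp14 lies 0.52 to 1.19 above its WT mean in KO, Krtdap lies below its WT mean in each KO library, and WT replicate 2 lies below the WT mean for each gene but Ppl.

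The genes whose pattern over the 6 libraries was most like that of each tested gene were found by the root mean square difference of centred log2 values, among 6633 genes with a mean of at least 50. They were Spen for Tgm3 (0.03 log2 units), Sec24d for Evpl (0.03), Phf2 for Ppl (0.05), Lsm12 for Cnfn (0.05), Pi4ka for Krtdap (0.06), Pip5k1a for Dmkn (0.03), Clpb for Casp14 (0.11) and H13 for Lypd3 (0.03). Casp14 thus had the least close match. Clpb had 346, 243 and 350 in KO and 139, 142 and 205 in WT.

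Of 84 related genes of cornification in 8 lists, 83 were in the table and 64 could be tested, and 1 of them rose. None fell, and 63 did not pass. That is 1.56%, against 1.8% of all tested genes. An unadjusted p under 0.05 was found for 12 of the 64, or 18.8%, against 13.5% of all tested genes. The groups did not overlap for 14 of the 64, or 21.9%, against 19.1% of all tested genes. The median log2 fold change was 0.07. The gene that rose was Sprr1b, a small proline-rich envelope precursor joined by transglutaminases, with 11297, 12072 and 9276 in KO and 3994, 4258 and 5500 in WT (1.25 ± 0.21 (SE), limma adjusted p = 0.0157). With 1 library left out its log2 fold change was 1.16 to 1.39, and it passed without WT replicate 3 alone, with limma adjusted p up to 0.0732. With the name style as a covariate it was 1.20 and did not pass (limma adjusted p = 0.0551). The list of envelope precursors held 11 tested genes of 17, of which 10 did not pass. S100a11, a calcium-binding protein found in envelopes, had 2686, 2852 and 2382 in KO and 1350, 1737 and 1902 in WT (0.68 ± 0.19 (SE), limma adjusted p = 0.117). The authors' deposited table lists S100a11, Sprr1a and Sprr1b, with log2 fold changes of 0.67, 0.79 and 1.25, and no other gene of the lists.

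Among genes of desmosomes and of corneodesmosomes, the junctions between cornified cells, 0 of 8 tested genes passed. Dsg1a, a desmosomal cadherin of upper layers, had 1655, 1824 and 1665 in KO and 3161, 2342 and 2199 in WT, with no overlap (-0.56 ± 0.19 (SE), limma adjusted p = 0.197). Dsc2, another desmosomal cadherin, had 2478, 2111 and 2251 in KO and 1669, 1595 and 1694 in WT, also with no overlap and in the other direction (0.46 ± 0.16 (SE), limma adjusted p = 0.225).

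Of 14 tested proteases, inhibitors and deiminases 0 passed, with a median of -0.01. Ctsc, cathepsin C, had 50.9, 43.1 and 34.3 in KO and 62.2, 65.4 and 65.3 in WT (-0.59 ± 0.23 (SE), limma adjusted p = 0.285). Klk5, a kallikrein that cuts corneodesmosomes, had 138, 188 and 175 in KO and 238, 181 and 256 in WT (-0.43 ± 0.21 (SE), limma adjusted p = 0.408). The groups overlapped for Klk5 and not for Ctsc.

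Of 15 tested genes of the lipid envelope 0 passed, with a median log2 fold change of 0.09. The log2 fold change was positive for 11 of the 15, and for 5394 of all 10987 tested genes. Smpd1, acid sphingomyelinase, had 1100, 865 and 980 in KO and 594, 586 and 768 in WT (0.60 ± 0.18 (SE), limma adjusted p = 0.148). Abca12, the lipid transporter of lamellar bodies, had 972, 1095 and 1012 in KO and 847, 757 and 863 in WT (0.32 ± 0.16 (SE), limma adjusted p = 0.425). The groups overlapped for neither.

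In the Ly6 and uPAR family, to which Lypd3 belongs, 0 of the 10 tested relatives passed and the median log2 fold change was -0.38. Slurp1, a secreted Ly6 protein of keratinocytes, had 1197, 1110.0 and 1313 in KO and 1659, 1503 and 2450.0 in WT (-0.60 ± 0.21 (SE), limma adjusted p = 0.212). Slurp2, another secreted member, had 676, 653 and 723 in KO and 962, 821 and 1186 in WT (-0.52 ± 0.18 (SE), limma adjusted p = 0.217). For both, all KO libraries lay below all WT libraries. Ly6g6c, named after its values were seen, had all KO libraries above all WT libraries, as Lypd3 did, with 12581, 11134 and 12847 in KO and 9208, 7800.2 and 10782 in WT (0.41 ± 0.21 (SE), limma adjusted p = 0.459). Agr2 and Agr3, described as ligands of Lypd3, had at most 4.71 and 3.49 in any library and were not tested.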

How the data were processed

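The authors deposited normalised read counts per gene and library, a signal on a linear scale per the file headers. Per the submitters' processing notes the tools included STAR, featureCounts, FastQC and DESeq2. Their versions, the build, the annotation and the strand setting are not known here. A second table, also deposited, gives log2 fold changes, a score (the Wald statistic) and p-values of the genes the authors called. Each normalised value was a whole multiple of 1 step per library (100% to within 0.01 of a read), and the reads so recovered were used with edgeR 4.0.16 and DESeq2 1.42.0.

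The groups, of 3 mice each, were compared by limma 3.58.1 in R 4.3.3 (intensity trend, two-sided) on log2(value + 1). Genes were tested if 3 or more libraries reached 10, which left 10987, and p-values were Benjamini-Hochberg adjusted over all of them. Fold changes on this scale understate those of low genes. The fit was tested on simulated counts with the same setting of spread for every gene. That does not check it against the differences between libraries seen here. Of the table's identifiers 99.7% were found in GENCODE M21.

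The genes and lists were chosen with earlier results of these data known. Named are all 10 genes, the 2 of smallest p in each list of related genes, the closest match of each tested gene, Ern1, and, chosen after their values were seen, Tgm2, Tmem147os, B2m and the other genes set beside it, Ly6g6c, Agr2, Agr3, Dcn, Mlana, Sprr1a (as a gene of the authors' table) and the genes of the closing observations. Other pseudocounts, filters, scalings, tests and covariates were tried, and each library was left out in turn.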

Additional observations from a re-analysis of the deposited data

How the results depend on the processing

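The 8 tested genes were refitted under 19 alternatives, giving 152 log2 fold changes, of which 145 kept their sign and stayed short of the threshold. The sign turned for 3 genes with values near 0. Tgm3 was -0.019 with equal library totals, and it ran from -0.11 to 0.14 when 1 library was left out, against -0.10 to 0.24 for Evpl and -0.028 to 0.33 for Dmkn. One of the 8 passed with a weight per library (Casp14), and 0 passed in each of the other 18 fits. With 1 library left out, Casp14 ran from 0.75 to 1.15 (limma adjusted p = 0.0568 without WT replicate 3 to 0.382 without KO replicate 1), and the median of the 8 from 0.00 to 0.17. The count over all genes, 198 in all, was 368 with DESeq2, 590 with a weight per library, 82 with the name style as a covariate and 68 to 186 with 1 library left out. The count of related cornification genes was 3 with DESeq2, 3 with a weight per library, 0 with the name style as a covariate and 0 to 1 with 1 library left out, when Sprr1b passed without WT replicate 3 alone. With the replicate number as a block 178 genes were called, and 0 of the 8. Same-numbered libraries correlated at -0.25, 0.03 and 0.28 in their deviations from the group means, so the numbers were not taken as pairs. With 3 mice a group, the 95% intervals of Tgm3, Evpl, Ppl, Cnfn, Krtdap, Dmkn and Lypd3 each include 1-fold, and none shows that the levels were alike.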

Other observations

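Lor, Asprv1 and Cdsn, among the most abundant of the related genes, and Ivl did not pass the test, and were picked after their values were seen. Lor, loricrin, the main envelope protein of cornifying epithelium, had 104898, 81193 and 94782 in KO and 107980, 67448 and 94898 in WT (0.07, limma adjusted p = 0.951). Asprv1, a protease of the granular layer, had 60501, 46047 and 61211 in KO and 48336, 37879 and 70815 in WT (0.13, limma adjusted p = 0.910). Cdsn, corneodesmosin, had 33045, 28266 and 40251 in KO and 25675, 21245 and 38269 in WT (0.28, limma adjusted p = 0.751). Ivl, involucrin, an early envelope precursor, was listed low throughout, with 30.3, 32.7 and 21.9 in KO and 59.4, 32.3 and 39.2 in WT (-0.58, limma adjusted p = 0.456). The groups overlapped for each of these genes.

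Of the related genes, 7 were listed at 0 in all 6 libraries, namely Hrnr, Rptn, Tchh, Sprr2a1, Anxa1, Cela2a and Ly6k. Anxa1, annexin A1, a protein of many epithelia, carried no exon of another gene over its last exon block in GENCODE M21, as was so for Tgm1 and B2m, and the cause of these values was not tested.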
